A study of Mus musculus with 12 samples.

Results

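The levels of 8 podocyte genes, Nphs1, Podxl, Wt1, Synpo, Ptpro, Magi2, Cd2ap and Actn4, were compared in RNA-seq libraries of mouse kidney. They were chosen by symbol and are 8 of 24421 genes in the deposited tables. All 8 were found, and for a gene with several transcripts the one with the highest total count was used. The 12 libraries came from kidneys of male mice 6 weeks old, labelled C57BL/6 and described in the methods as of C57BL/6J background, in 4 groups of 3: WT and Tet2-/- mice labelled as healthy controls (baseline), and WT and Tet2-/- mice after ischemia-reperfusion (IR). For IR, the right renal pedicle was clamped for 60 min, the left kidney was removed, and tissue was taken 24 h later. No sham operation is described for the baseline mice, so that every IR comparison also holds surgery and the loss of a kidney. Tet2 encodes an enzyme that oxidizes methylated cytosine in DNA, and the Tet2-/- mice are described as knockout mice, with no podocyte-specific deletion named.

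The label of the Tet2-/- group was checked against the targeted gene. Tet2 was at 9.15, 6.25 and 7.33 FPKM (counts scaled to transcript length and library depth) in the 3 WT baseline libraries and at 9.24, 16.6 and 10.3 FPKM in the 3 libraries labelled Tet2-/- at baseline. After IR it was at 9.34, 3.97 and 3.86 FPKM in WT and at 2.64, 3.20 and 1.76 FPKM in libraries labelled Tet2-/-. Tet2 was thus no lower in the latter at baseline (log2 fold change 0.76, adjusted p = 0.320), and after IR it was lower without overlap (-1.28, adjusted p = 0.0690), with an interaction of -2.002 (adjusted p = 0.0285). Since the deleted part of the gene is not given in the sources used here, these counts may not test the deletion. The words "labelled Tet2-/-" are used for these libraries throughout. Total counts per library, over 1 transcript a gene, ran from 51007362 to 107969879.

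Podocytes are the epithelial cells that wrap the capillaries of the glomerulus, and their interlocking foot processes leave slits bridged by the slit diaphragm, the last barrier of the kidney's filter. Nephrin, the product of Nphs1, is the slit diaphragm's adhesion molecule, and adaptor proteins such as CD2AP and MAGI-2 tie it to the actin cytoskeleton, where synaptopodin (Synpo) and alpha-actinin-4 (Actn4) bind actin. Podocalyxin (Podxl) is the negatively charged sialomucin of the apical surface, PTPRO (also GLEPP1) is a receptor tyrosine phosphatase of the same surface, and WT1 is a transcription factor that mature podocytes need. Some of these genes are not the podocyte's alone: Cd2ap and Actn4 are used by many cells, tubule cells among them, Podxl also by endothelium, and Wt1 also by parietal epithelium and mesothelium.

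On mm9, the build of the files, Nphs1 lies at chr7:31245077-31273628, Actn4 at chr7:29678273-29747299, Podxl at chr6:31469493-31513937, Ptpro at chr6:137200820-137413154, Wt1 at chr2:104966686-105013771, Magi2 at chr5:18732864-20210609 and Cd2ap at chr17:42929900-43013373. Each is the span of a whole transcript, exons and introns together. An antisense gene, Nphs1os, overlaps the Nphs1 span by 3428 bases, and Capn12 on the other strand overlaps the Actn4 span by 332 bases. Whether the counting used strand is not given in the sources used here, so reads of overlapping exons cannot be told apart.

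The stretch before the transcription start is printed for 4 of the genes, 2 that were at their lowest in 1 library, the third of WT after IR (Nphs1 and Ptpro), and 2 that were not (Cd2ap and Actn4). Podxl, Synpo and Wt1 were also at their lowest there, but no promoter entry was matched for them. The 4 stretches therefore cannot stand for the 2 patterns. These are RefSeq sequences on GRCm38.p6, a later build than that of the files, with 250 bases before the start and every CpG, the dinucleotide that DNA methylation marks, in capitals. No methylation was measured in these samples.
Nphs1 promoter, chr7:30459808-30460057, plus strand: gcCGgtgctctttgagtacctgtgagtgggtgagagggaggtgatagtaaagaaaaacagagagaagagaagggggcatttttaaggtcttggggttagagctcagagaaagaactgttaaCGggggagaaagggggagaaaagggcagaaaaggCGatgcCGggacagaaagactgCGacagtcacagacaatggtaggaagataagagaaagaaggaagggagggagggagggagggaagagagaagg
Ptpro promoter, chr6:137252049-137252298, plus strand: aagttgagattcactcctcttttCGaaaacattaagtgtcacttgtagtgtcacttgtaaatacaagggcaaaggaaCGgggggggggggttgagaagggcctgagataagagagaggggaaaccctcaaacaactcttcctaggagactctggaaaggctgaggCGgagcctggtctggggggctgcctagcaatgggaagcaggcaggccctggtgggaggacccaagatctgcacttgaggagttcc
Cd2ap promoter, chr17:42876425-42876674, minus strand: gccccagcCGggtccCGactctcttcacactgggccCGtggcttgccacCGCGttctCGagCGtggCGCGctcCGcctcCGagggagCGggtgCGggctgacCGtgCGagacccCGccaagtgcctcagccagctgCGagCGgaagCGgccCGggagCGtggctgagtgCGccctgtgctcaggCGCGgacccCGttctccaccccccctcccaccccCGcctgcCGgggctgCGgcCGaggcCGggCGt
Actn4 promoter, chr7:28962333-28962582, minus strand: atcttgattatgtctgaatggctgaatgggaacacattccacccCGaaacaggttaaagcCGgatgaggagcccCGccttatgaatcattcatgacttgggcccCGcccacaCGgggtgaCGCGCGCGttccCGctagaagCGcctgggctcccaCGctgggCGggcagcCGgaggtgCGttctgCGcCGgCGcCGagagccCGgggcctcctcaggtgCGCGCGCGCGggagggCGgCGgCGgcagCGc

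The Nphs1 stretch held 5 CpGs and the Ptpro stretch 3, against a median of 6 (quartiles 2 and 16) over 32851 promoters of the same length. The Cd2ap stretch held 31 and the Actn4 stretch 29, more than 94.8% and 93.2% of promoters. Magi2 had 2 starts in the same table, 1 with 29 CpGs and 1 with 3. Of 3 letter strings searched on both strands, none of which contains another, GCGGGGGCG, a form of the WT1 and EGR site, was in none of these stretches and in 2.57% of all promoters. GCGTGGGAG, another form of the WT1 site, was found before Actn4 and in 0.405% of all promoters, and TAATTA, a homeodomain site of the LMX1B type, before the second Magi2 start and in 4.84% of all promoters. These are matches of letters and not measured binding.

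The 8 genes spanned a wide range of levels. At baseline in WT, mean FPKM, a level per length that can be compared between genes, was 59.6 ± 5.59 (SD, n = 3) for Actn4, 14.9 ± 2.71 for Cd2ap, 12.6 ± 3.18 for Podxl, 3.65 ± 0.803 for Synpo, 1.03 ± 0.461 for Nphs1, 0.652 ± 0.235 for Wt1, 0.568 ± 0.290 for Ptpro and 0.495 ± 0.146 for Magi2. Cd2ap and Podxl were within their spread of each other, and so were Nphs1, Wt1, Ptpro and Magi2, while Actn4 stood above all others.

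Among the slit diaphragm genes, Nphs1 was at 1.19, 0.506 and 1.39 FPKM in the WT baseline libraries and at 0.945, 0.961 and 0.783 FPKM in the baseline libraries labelled Tet2-/-. After IR it was at 1.25, 1.41 and 0.161 FPKM in WT and at 1.71, 4.44 and 2.52 FPKM in the libraries labelled Tet2-/-. The latter were the 3 highest of all 12, and the third WT IR library was the lowest. Because each library is a piece of whole kidney, fewer podocytes and less RNA per podocyte cannot be told apart in any of these values.

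Cd2ap, the adaptor, was at 12.1, 17.5 and 15.1 FPKM in WT and at 10.6, 10.6 and 9.90 FPKM in libraries labelled Tet2-/- at baseline. After IR it was at 14.6, 29.8 and 19.0 FPKM in WT and at 40.1, 39.4 and 39.7 FPKM in libraries labelled Tet2-/-. From low to high the groups were labelled Tet2-/- baseline, WT baseline, WT IR and labelled Tet2-/- IR, and only the WT groups overlapped. Magi2, the scaffold, stayed between 0.333 and 0.810 FPKM in all libraries, and its 2 group ranges after IR, 0.402 to 0.585 in WT and 0.524 to 0.810 in those labelled Tet2-/-, overlapped.

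Of the apical genes, Podxl was at 15.3, 9.10 and 13.4 FPKM in WT baseline and at 7.24, 10.9 and 8.66 FPKM in labelled Tet2-/- baseline libraries. After IR it was at 15.5, 12.9 and 1.65 FPKM in WT and at 21.0, 45.2 and 34.3 FPKM in libraries labelled Tet2-/-. As with Nphs1, the last 3 were above all others and the third WT IR library was below all others. Ptpro had the same extremes at a lower level, with 0.581, 0.762 and 0.041 FPKM in WT IR and 0.604, 2.57 and 0.984 FPKM in labelled Tet2-/- IR. Its baseline libraries held 0.739, 0.233 and 0.731 FPKM in WT and 0.284, 0.406 and 0.296 FPKM in those labelled Tet2-/-, so that 1 labelled Tet2-/- IR library lay within the range of WT.

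Of the actin binders, Synpo (chr18:60753644-60783959) was at 4.005, 2.73 and 4.21 FPKM in WT baseline and at 2.64, 3.31 and 2.53 FPKM in labelled Tet2-/- baseline libraries. After IR it was at 4.55, 5.24 and 1.13 FPKM in WT and at 9.03, 17.9 and 12.7 FPKM in libraries labelled Tet2-/-, which again lay above all 9 others. Actn4, at the highest level of the 8, was at 59.99, 53.9 and 65.0 FPKM in WT baseline, at 46.4, 51.5 and 49.9 FPKM in labelled Tet2-/- baseline, at 81.5, 96.8 and 76.1 FPKM in WT IR and at 113, 106 and 105 FPKM in labelled Tet2-/- IR libraries. Its 4 groups did not overlap in FPKM, though the nearest baseline values, 51.5 and 53.9, were close. Wt1, the transcription factor, was at 0.769, 0.381 and 0.806 FPKM in WT baseline, at 0.592, 0.557 and 0.578 FPKM in labelled Tet2-/- baseline, at 0.591, 1.05 and 0.130 FPKM in WT IR and at 2.22, 2.46 and 3.64 FPKM in labelled Tet2-/- IR libraries. The last 3 were all above the highest of the other 9.

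**Figure D1:**
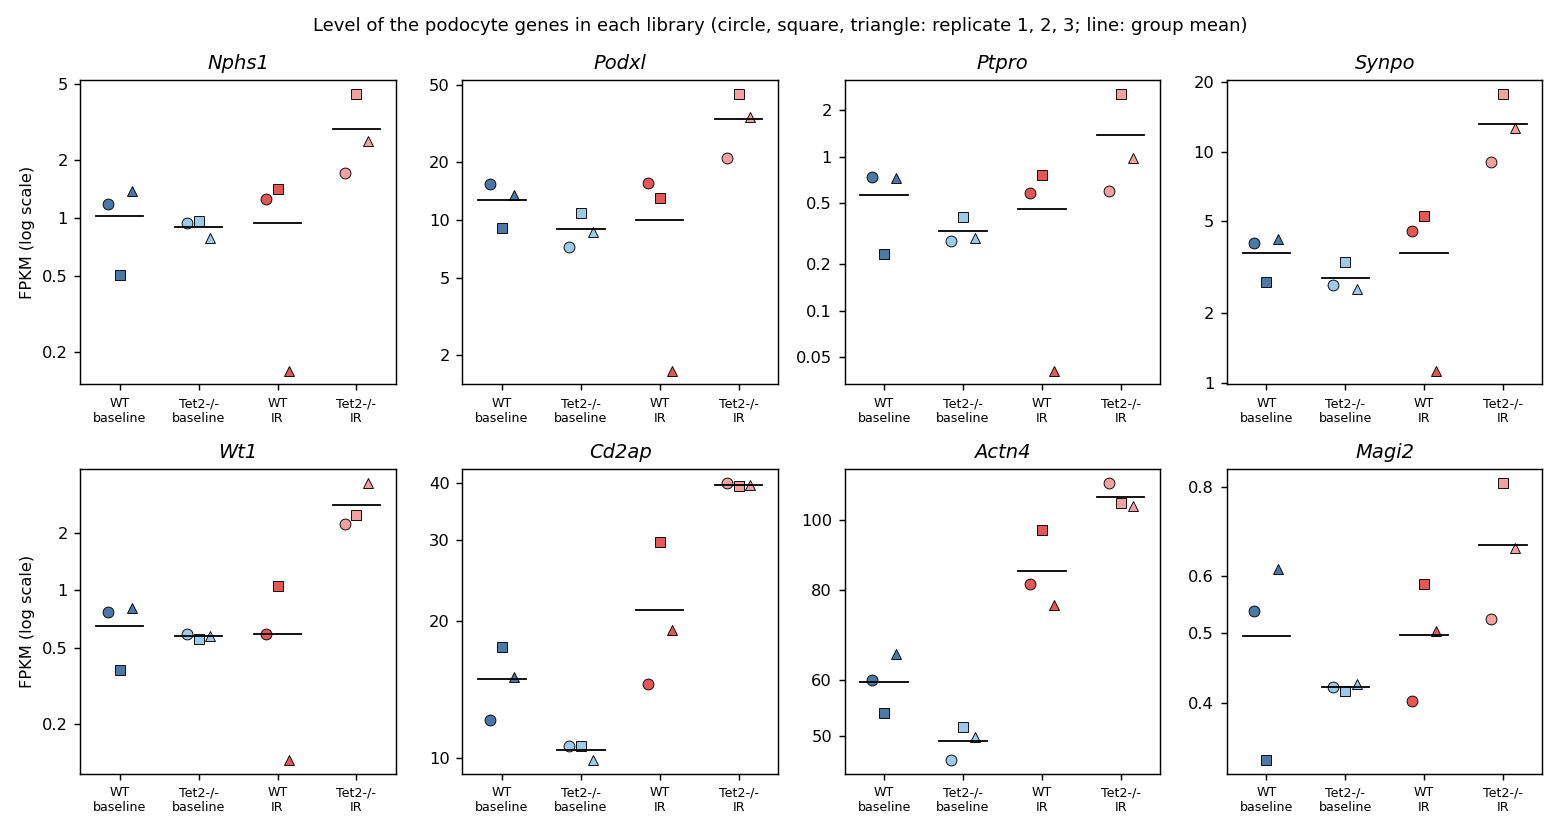
FPKM on a log axis in each of the 12 libraries for the 8 podocyte genes, with replicates 1, 2 and 3 as circle, square and triangle and the group mean as a line. In the panels of Nphs1, Podxl, Ptpro, Synpo and Wt1 the third WT IR library is the lowest of the 12, at 0.161 FPKM for Nphs1, and in all panels the mean of the IR libraries labelled Tet2-/- is the highest of the 4.

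The third WT IR library stood apart. The mean of the other 2 WT IR libraries was 8.26-fold its level for Nphs1, 8.60-fold for Podxl, 16.4-fold for Ptpro, 4.34-fold for Synpo and 6.32-fold for Wt1. For Cd2ap it was 1.17-fold, for Actn4 1.17-fold and for Magi2 0.981-fold, so that these 3 were near its companions. Ranked over 12887 genes by the log2 CPM (counts scaled to library depth) of that library minus the mean of the other 2, from the most negative, Ptpro was at rank 12, Podxl at 42 and Nphs1 at 45, and Cd2ap was at rank 6252. Its total of 56280111 counts lay within the range of the others, and it held 71 counts of Nphs1 and 21 of Ptpro.

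Markers of other cells, glomerular and not, were low in the same library. Of 10 markers of glomerular endothelium, 9 were at their lowest of the 12 libraries there, with a summed 26.9 FPKM against 61.0 and 62.4 in the other WT IR libraries. All 10 mesangial markers were at their lowest of the 3 WT IR libraries there, with a sum of 35.0 FPKM against 60.1 in each of the others. So were all 8 smooth muscle markers, with 33.6 FPKM against 106.1 and 70.8, and the mesothelial sum was 38.7 FPKM against 87.6 and 66.6. Of 6 markers of parietal epithelium, the outer layer of the glomerular capsule, 1 was at its lowest of the 12, and of 10 of proximal tubule none was. The part of these shifts in the podocyte gene values was not tested there. The second WT baseline library was also the lowest of its group for Nphs1, Podxl, Ptpro, Synpo and Wt1, with the other 2 at 2.54-fold its Nphs1 and 3.16-fold its Ptpro, but its glomerular endothelial sum, 158.8 FPKM, was the highest of the 12.

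**Figure D2:**
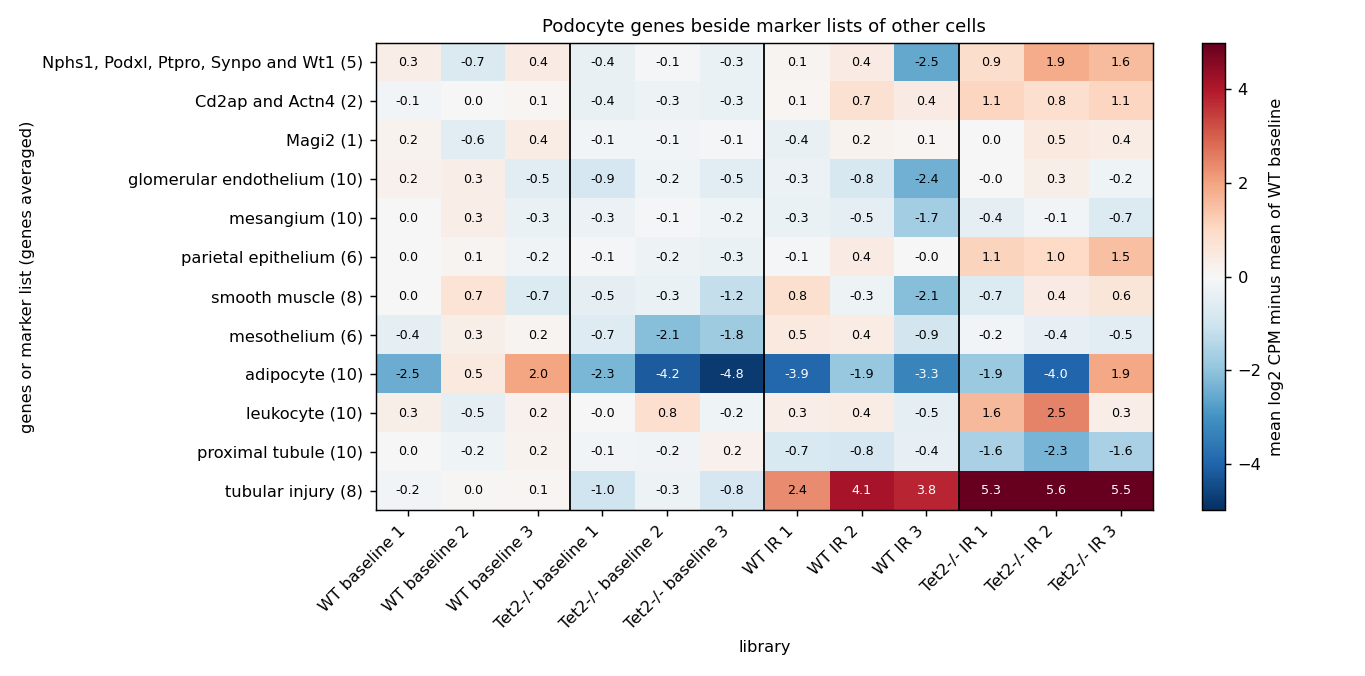
Mean log2 CPM, less the mean of the 3 WT baseline libraries, of the podocyte genes in 3 groups and of marker lists of other cells (rows, with the number of genes averaged) in the 12 libraries (columns). The third WT IR library has the lowest value of the 12 in the rows of Nphs1, Podxl, Ptpro, Synpo and Wt1, glomerular endothelium, mesangium and smooth muscle, and the row of tubular injury is higher in every IR library than at baseline, with its 3 highest values, like those of Cd2ap and Actn4, in the IR libraries labelled Tet2-/-.

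How the podocyte genes varied together was described by Pearson's r of log2 CPM over the libraries, in groups of genes named after their values were seen. The 10 pairs among Nphs1, Podxl, Ptpro, Synpo and Wt1 had r from 0.851 to 0.974 (n = 12 libraries). Cd2ap and Actn4 had r = 0.903 with each other, and their 10 pairs with the 5 genes had r from 0.317 to 0.672. Magi2 had r from 0.369 to 0.541 with the 7 others. Much of this separation rested on the third WT IR library. Over the 11 other libraries the 5 genes had r from 0.73 to 0.969, their pairs with Cd2ap and Actn4 from 0.603 to 0.864, and Magi2 from 0.502 to 0.849, the highest with Ptpro and Nphs1 (0.844).

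After each group's mean was subtracted, so that only the spread within groups counted, the 5 genes had r from 0.856 to 0.990 and their pairs with Cd2ap and Actn4 from -0.196 to 0.502. Over the 11 other libraries these ranges were 0.405 to 0.964 and -0.425 to 0.73, which overlap. These are descriptions, since both genes of a pair share the library, its depth and its piece of tissue.

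**Figure D3:**
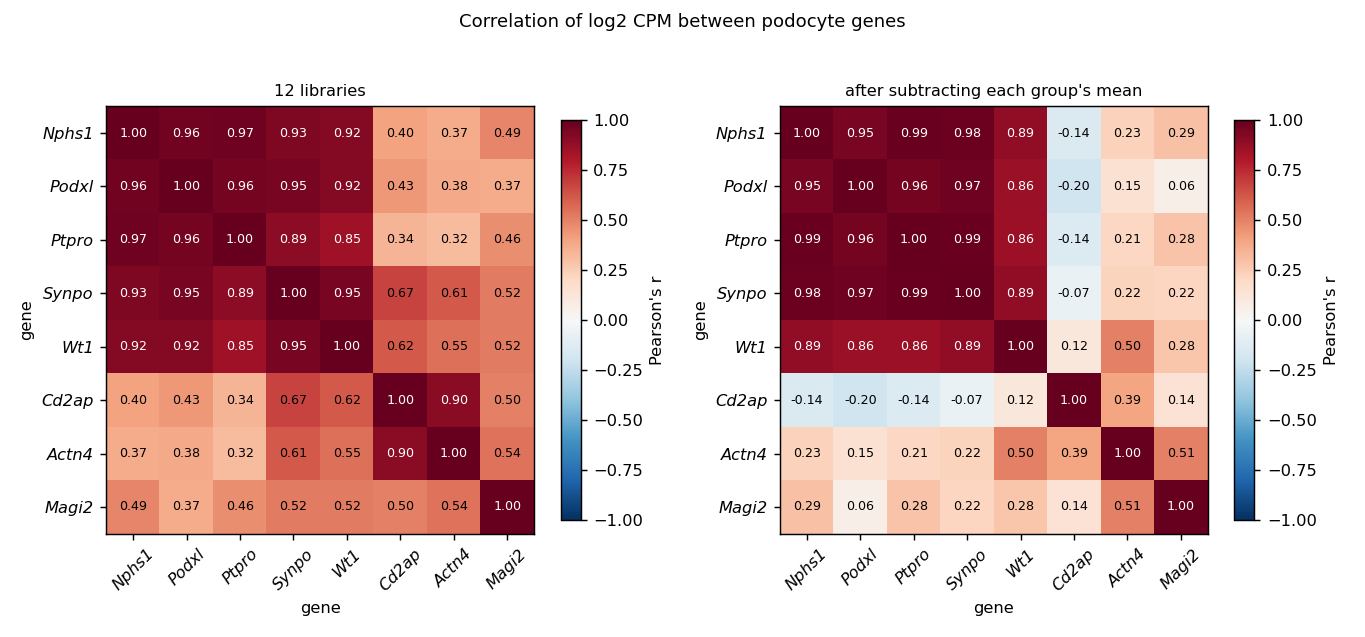
Pearson's r of log2 CPM for each pair of the 8 podocyte genes over 12 libraries (left) and after each group's mean was subtracted (right), on a colour scale from -1 to 1. Nphs1, Podxl, Ptpro, Synpo and Wt1 form a block with r of at least 0.851 on the left and 0.856 on the right, outside which Cd2ap, Actn4 and Magi2 fall, but without the third WT IR library the pairs of these 5 with Cd2ap and Actn4 reach 0.603 to 0.864.

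The ratio of 2 genes within a library was taken on a linear scale of FPKM. Over the 12 libraries, which spanned 27.6-fold in Nphs1, the ratio of Podxl to Nphs1 ran from 7.66 to 18.0, that of Ptpro to Nphs1 from 0.255 to 0.622, that of Synpo from 2.79 to 7.01 and that of Wt1 from 0.472 to 1.45. These 4 ratios thus spanned 2.35-fold to 3.06-fold. The ratio of Cd2ap to Nphs1 spanned 13.3-fold, that of Magi2 17.1-fold and that of Actn4 19.9-fold, each with its highest value in the third WT IR library. Over the 11 other libraries they spanned 3.89-fold, 3.60-fold and 4.47-fold, beside 1.93-fold for Synpo to 3.06-fold for Wt1 among the first 4.

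Genes with a pattern like that of Nphs1, by Pearson's r of log2 CPM over 12 libraries among 12880 genes with a mean of at least 1 FPKM in any group, included Shisa3 (r = 0.964), Nphs1os (0.954), Myom2 (0.953), Ddn (0.940), Gja5 (0.935), Sema3g (0.926) and C1qtnf1 (0.923). Shisa3, Nphs1os, Myom2 and Ddn reached that mean only in the IR group labelled Tet2-/-, where Nphs1 was also highest, so the filter itself favoured this likeness. Nphs1os is the antisense gene that overlaps Nphs1, and Ddn encodes dendrin, a slit diaphragm protein. Without the 2 libraries farthest from the median of Nphs1, the third WT IR library and the second labelled Tet2-/- IR library, r was 0.940 for Ddn, 0.917 for Shisa3 and 0.688 for Gja5.

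The podocyte genes were also set beside the marker lists of other cells. With the mean log2 CPM of 8 tubular injury genes, r over 12 libraries was 0.932 for Cd2ap and 0.958 for Actn4, and 0.259 to 0.599 for Nphs1, Podxl, Ptpro, Synpo and Wt1. Over the 11 libraries without the third WT IR library it was 0.944 for Cd2ap, 0.959 for Actn4 and 0.696 to 0.909 for the 5 others, so the contrast between them rested largely on that library. After group means were subtracted, r was 0.8 for Cd2ap, 0.420 for Actn4 and -0.272 to -0.063 for the 5, or 0.836, 0.495 and 0.065 to 0.412 over the 11 libraries. With the mean of 10 glomerular endothelial markers, r was 0.598 to 0.813 for the 5 genes, 0.089 for Cd2ap and -0.046 for Actn4. Without the third WT IR library these 5 values were between 0.126 and 0.455, so they rest on that library. With the mean of 10 mesangial markers the 5 values were 0.287 to 0.551, or -0.649 to -0.360 over the 11 libraries, and with that of 8 smooth muscle markers 0.492 to 0.718, or 0.101 to 0.408, so these rest on it too. The leukocyte and parietal epithelial values moved less. With the mean of 10 leukocyte markers r was 0.658 to 0.783 for the 5 genes, or 0.617 to 0.781 over the 11 libraries, and with the mean of 6 parietal epithelial markers 0.476 to 0.804, or 0.583 to 0.910. Around the group means the leukocyte values became 0.204 to 0.595, or -0.164 to 0.607 over the 11, and the parietal values 0.051 to 0.399, or -0.302 to 0.366 with 4 of the 5 below 0. Cd2ap had r = 0.923 and Actn4 0.801 with the latter over the 12, and with the mean of 10 proximal tubule markers the 5 genes had r from -0.8 to -0.505 and Cd2ap and Actn4 -0.864 and -0.803. How much of the Cd2ap and Actn4 RNA came from podocytes was not tested.

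The first comparison asked what IR did in WT kidneys. None of the 8 genes passed the test (edgeR's quasi-likelihood test, Benjamini-Hochberg adjusted p under 0.05), against 1.88% of the 16015 genes tested that were higher and 1.14% that were lower. At an unadjusted p under 0.05 there was 1 of the 8, Actn4, where 22.7% of all genes had one, and DESeq2 called 1 as higher, also Actn4, where it called 6.87% of all genes. The log2 fold changes were 0.44 (SE 0.14, adjusted p = 0.141) for Actn4 and 0.44 (SE 0.27, adjusted p = 0.372) for Cd2ap. For the other 6 they ran from -0.44 (SE 0.66) for Podxl to -0.06 (SE 0.30) for Magi2, with SEs up to 0.88. The median of the 8 was -0.17 beside -0.03 over all genes tested. Without the third WT IR library, the values of Nphs1, Podxl, Ptpro, Synpo and Wt1 turned positive, to between 0.055 and 0.307, so that no direction can be given for them.

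The second comparison asked the same in the libraries labelled Tet2-/-. Here 7 of the 8 genes rose, as did 22.9% of the 16358 genes tested, while 20.3% fell. Wt1 rose by 2.03 on the log2 scale (SE 0.27, adjusted p = 0.00117), from a mean of 0.576 ± 0.0176 to 2.77 ± 0.758 FPKM (SD, n = 3). Synpo rose by 1.95 (SE 0.23, adjusted p = 0.000699), from 2.83 ± 0.424 to 13.2 ± 4.44 FPKM. Ptpro rose by 1.78 (SE 0.48, adjusted p = 0.0209), from 0.329 ± 0.0672 to 1.39 ± 1.04 FPKM. The second IR library labelled Tet2-/- stood above the mean of the other two by 3.24 times for Ptpro and 2.10 times for Nphs1, and without it the log2 fold change was 1.09 (adjusted p = 0.0349) for Ptpro and 1.06 (adjusted p = 0.0143) for Nphs1.

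The other risers included both widely used genes. Cd2ap rose by 1.68 (SE 0.12, adjusted p = 0.000143), from 10.4 ± 0.427 to 39.7 ± 0.338 FPKM, the smallest error of the 8. Podxl rose by 1.64 (SE 0.28, adjusted p = 0.00297) from 8.92 ± 1.82 to 33.5 ± 12.1 FPKM, and Nphs1 by 1.41 (SE 0.31, adjusted p = 0.00882) from 0.896 ± 0.0985 to 2.89 ± 1.40 FPKM. Actn4 rose by 0.87 (SE 0.15, adjusted p = 0.00291), from 49.3 ± 2.61 to 108 ± 4.33 FPKM. Magi2 did not pass, at 0.39 (SE 0.23, adjusted p = 0.196).

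Of these 7, all but Actn4, that is 6, were also above the study's limit of a log2 fold change of 1, which 12.7% of genes tested passed as higher. All 8 had groups that did not overlap in FPKM, with the IR group higher, as had 40.5% of genes tested. FPKM lacks the scaling between libraries (TMM) that the tests used, and the FPKM means above rise by more than the fitted values. Pdss2, another podocyte gene, was higher without overlap in FPKM at a fitted value of -0.07. The median log2 fold change of the 8 was 1.66 beside 0.04 over all genes. Nphs1 and Ptpro missed the threshold when all 12 libraries entered a single fit (adjusted p = 0.0718 and 0.0831), and Ptpro when the first or the third labelled Tet2-/- baseline library was left out (adjusted p = 0.0746 and 0.0687) or limma was run on log2(FPKM + 1) (adjusted p = 0.0620). Over all alternatives the adjusted p ran from 5.6e-05 to 0.0718 for Nphs1 and from 0.00052 to 0.0831 for Ptpro, and the 5 other risers passed in each.

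Markers of other cells moved in the same comparison. Of 10 leukocyte markers 4 rose and 1 fell, with sums of 82.0 to 260.9 FPKM after IR against 26.1 to 47.9 at baseline. Of 6 parietal epithelial markers 3 rose and 1 fell, with sums of 120.3 to 194.2 against 53.6 to 64.4 FPKM, and of 10 glomerular endothelial markers 2 rose, with sums of 88.6 to 125.6 against 36.2 to 56.0 FPKM. Of 10 mesangial markers 2 rose and 2 fell, with sums of 59.9 to 78.8 against 52.4 to 58.7 FPKM, and of 8 smooth muscle markers 3 rose, with sums of 121.8 to 158.7 against 43.7 to 61.8 FPKM. Mesothelium, which also uses Wt1, had 3 of 6 tested markers higher and 1 lower, with sums of 42.2 to 56.5 against 44.6 to 76.1 FPKM. Of 8 tubular injury genes 7 rose, and of 10 proximal tubule markers 8 fell, with sums of 14780 to 23800 against 53710 to 54500 FPKM. Most of that sum was the gene Kap, at 13868 to 22443 against 48048 to 49745 FPKM. Sums weigh the most abundant markers most. In mean log2 CPM the leukocyte, glomerular endothelial, mesangial and smooth muscle groups overlapped, and the median log2 fold change of the mesangial markers was -0.09. The mesothelial mean, over 6 genes, was higher in each IR library, at 3.54 to 3.93 against 1.95 to 3.43. No list had a marker at 0 in all libraries. The part of these shifts in the podocyte gene values was not tested.

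**Figure D4:**
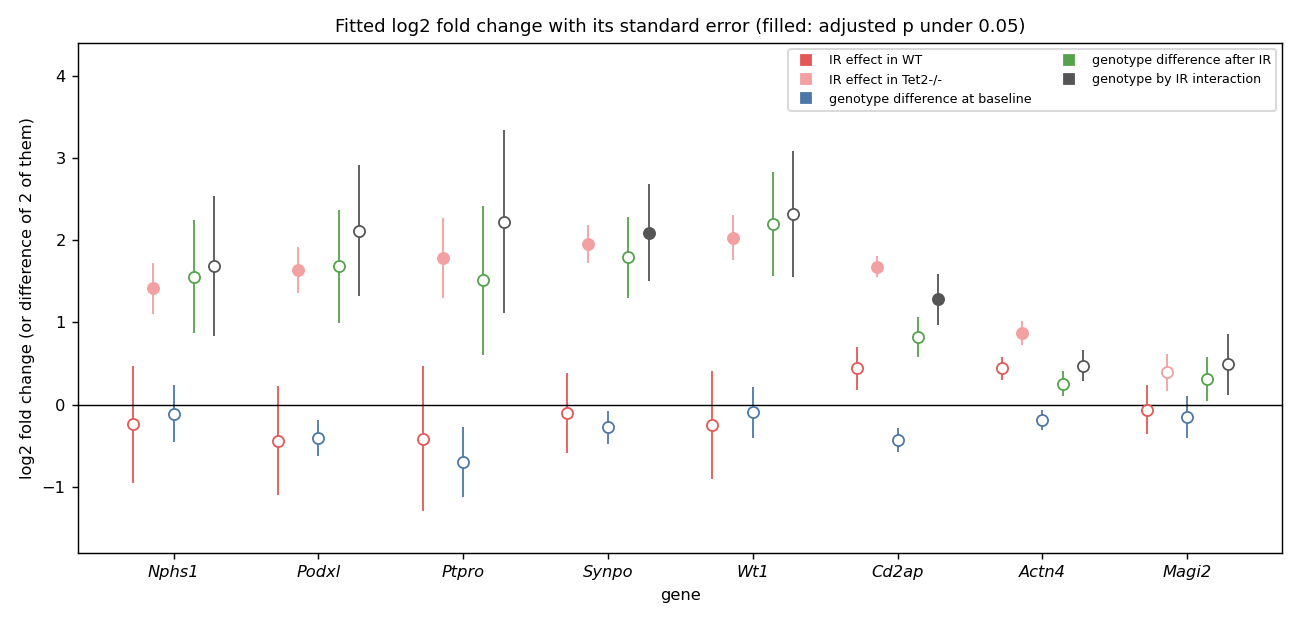
Fitted log2 fold change (points) with its standard error (bars) of each of the 8 podocyte genes in 5 comparisons, filled where the adjusted p was under 0.05. The filled points are those of IR in libraries labelled Tet2-/- for 7 genes, up to 2.03 for Wt1, and of the interaction for Cd2ap and Synpo.

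At baseline, none of the 8 genes passed the test between labelled Tet2-/- and WT libraries. Of the 16086 genes tested, 0.0124% were higher and 0.0% lower. Unadjusted p-values were under 0.05 for 1 of the 8, Cd2ap, and for 11.8% of all genes, and DESeq2 called 0 of the 8. All 8 log2 fold changes were below 0, from -0.70 for Ptpro to -0.09 for Wt1, with a median of -0.23 beside 0.00 over all genes. Cd2ap, at -0.43 (adjusted p = 0.344), and Actn4, at -0.18, had groups that did not overlap in FPKM, as had 16.5% of genes tested in the lower direction. FPKM lacks the TMM scaling of the tests, and Cttn, another podocyte gene, was lower without overlap in FPKM at a fitted value of 0.01. Nphs1, Magi2 and Wt1 turned positive when certain single WT baseline libraries were left out, to at most 0.180 for Nphs1.

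After IR, the libraries labelled Tet2-/- were compared with WT. None of the 8 genes passed the test, where 3.51% of the 16186 genes were higher and 6.17% lower, although 4 had an unadjusted p under 0.05, as had 28.9% of all genes. DESeq2 called 4 as higher, Cd2ap, Podxl, Synpo and Wt1, where it called 8.91% of all genes. The log2 fold changes were 2.20 (SE 0.64, adjusted p = 0.0736) for Wt1, 1.79 (SE 0.50, adjusted p = 0.0665) for Synpo, 1.68 (SE 0.69, adjusted p = 0.161) for Podxl, 1.55 (SE 0.69, adjusted p = 0.189) for Nphs1 and 0.82 (SE 0.25, adjusted p = 0.0803) for Cd2ap. The 3 others ran from 0.25 for Actn4 to 1.51 for Ptpro.

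All but Magi2 and Ptpro, 6 of the 8, had higher groups that did not overlap in FPKM, as had 22.0% of genes tested, and the median of the 8 was 1.53 beside 0.04 over all genes. Without the third WT IR library the differences were 1.73 for Wt1, 1.37 for Synpo (adjusted p = 0.0543), 1.18 for Podxl and 1.05 for Nphs1, smaller than with it, and again 0 of 8 passed. With all 12 libraries in a single fit 3 passed, Cd2ap, Synpo and Wt1, and with all but that library 3 passed, Podxl, Synpo and Wt1. The shares of all genes that these fits called are not given here. Without the second WT IR library Cd2ap passed, at 1.09 (adjusted p = 0.0422). Over the alternatives, the adjusted p ran from 0.00266 to 0.145 for Synpo and from 0.0175 to 0.208 for Cd2ap. Without the second IR library labelled Tet2-/-, Ptpro was at 0.81 and Nphs1 at 1.18. Of the markers of other cells in this comparison, all 10 glomerular endothelial ones were above 0 with none called and a median of 0.95, 3 of 9 leukocyte markers tested were called higher with a median of 1.79, and 2 of 6 parietal epithelial ones were called higher with a median of 1.08. Of 6 mesothelial markers tested 1 was called lower, with a median of -0.57. Of 10 mesangial markers 1 was called higher, with a median of 0.39, and of 8 smooth muscle markers 1, with a median of 0.59. Of 6 adipocyte markers tested 0 were called, with a median of 2.52. Of 8 tubular injury genes 1 was called higher, with a median of 1.89, and of 10 proximal tubule markers 4 were called lower, with a median of -1.26. The part of these shifts in the differences of the 8 genes was not tested.

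Whether the IR effect differed between the genotypes was tested as an interaction over all 12 libraries and 16741 genes. It was positive and past the threshold for 2 of the 8 genes, as for 3.78% of all genes, while 5.38% were negative. For Synpo the log2 difference of the effects was 2.09 (SE 0.59, adjusted p = 0.0484), and for Cd2ap it was 1.28 (SE 0.31, adjusted p = 0.0294). The other 6 were also above 0, from 0.47 for Actn4 to 2.31 (SE 0.76, adjusted p = 0.0791) for Wt1, and the median of the 8 was 1.89 beside 0.10 over all genes. The 2 calls were not firm. Leaving out any 1 library but the second WT IR library left 1 or 0 of the 8 past the threshold, and without the third WT IR library only Synpo passed (1.68, adjusted p = 0.0263) while Cd2ap did not (1.26, adjusted p = 0.0651). The adjusted p ran from 0.00711 to 0.116 for Synpo and from 0.00318 to 0.121 for Cd2ap over the alternatives.

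The remaining genes of the podocyte were read from a list of 78, sorted by role. In WT after IR, 2 of 76 tested rose and none fell, near the 1.88% and 1.14% of all genes: Anln, which encodes the actin-binding protein anillin, by 2.35 (adjusted p = 0.0332), and Cttn, which encodes cortactin, by 0.72 (adjusted p = 0.0380). Neither passed without the third WT IR library, at similar values of 2.43 (adjusted p = 0.0786) for Anln and 0.69 (adjusted p = 0.132) for Cttn. Of the 16315 genes then tested, 90 were higher and 54 lower. In libraries labelled Tet2-/-, 34 of 78 rose and 9 fell, with a median log2 fold change of 0.43, where 22.9% of all genes rose and 20.3% fell, with a median of 0.04. By role, 8 of 15 slit diaphragm genes rose and 0 fell, and of the actin cytoskeleton 8 of 15 rose and 2 fell. Of the basement membrane and adhesion 5 of 13 rose and 2 fell, of the apical membrane and receptors 5 of 12 rose and 2 fell, of transcription factors 2 of 10 rose and 1 fell, and of signalling and other genes 6 of 13 rose and 2 fell.

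The genes with the lowest adjusted p in that comparison were, among risers, Nes (nestin, an intermediate filament protein), by 2.34, Cd151 (a tetraspanin bound to integrins), by 1.47, Myo1e (an unconventional myosin), by 1.02, and Itga3 (the integrin that anchors the foot process to laminin), by 1.90, with adjusted p from 0.000182 to 0.000464. Nes went from 1.43 to 2.08 FPKM to 8.07 to 11.7 FPKM. Vegfa, the growth factor that podocytes send to the capillary endothelium and that tubule cells also make, fell by 1.41, from 66.9 to 78.5 FPKM to 27.1 to 37.3 FPKM. Nfia fell by 1.31, Ptprd by 1.03 and Mapt by 0.96. Most of these genes are used by other kidney cells too, and the source of their RNA was not tested.

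**Figure D5:**
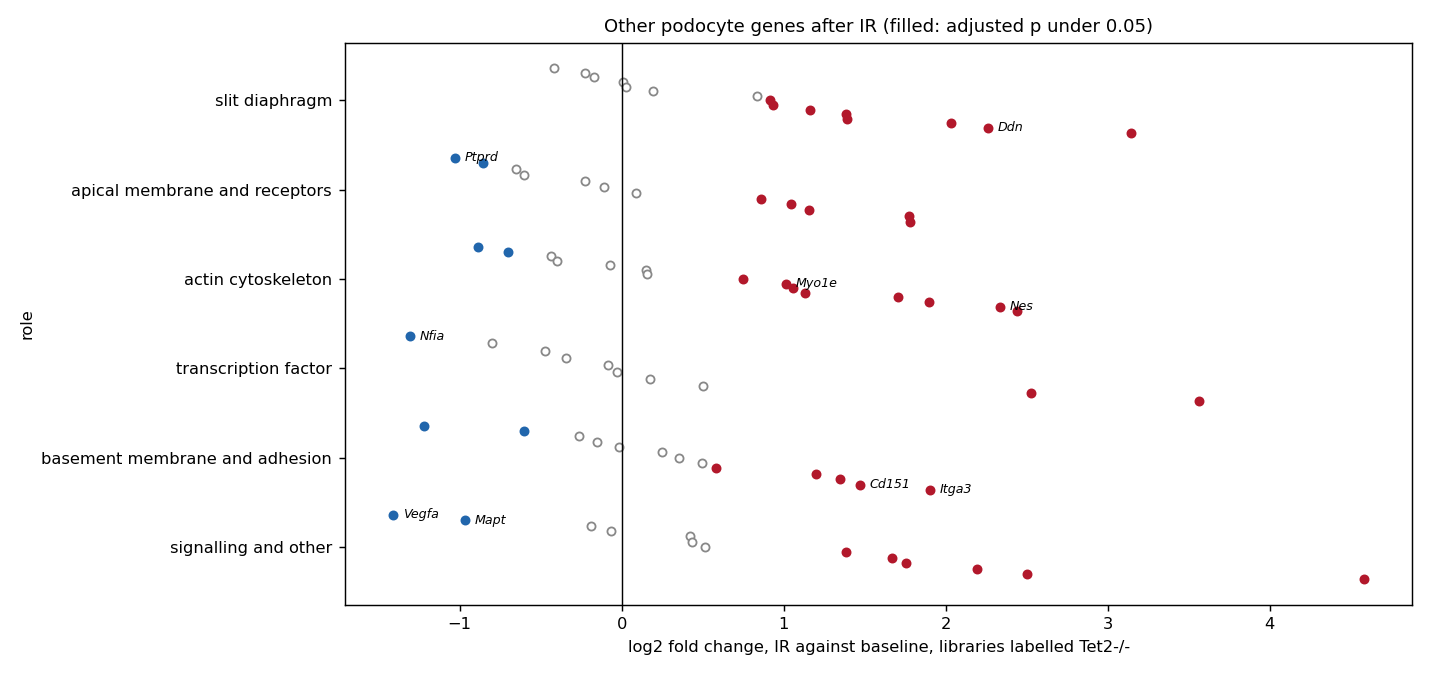
Log2 fold change of IR against baseline in libraries labelled Tet2-/- (horizontal axis) for 78 other podocyte genes (points), by role, filled where the adjusted p was under 0.05 with red for higher and blue for lower. Of the slit diaphragm genes 8 of 15 are filled on the right and none on the left, and Vegfa at -1.41 lies farthest left.

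Between genotypes at baseline, none of 75 of these genes was called by edgeR, where 10 had an unadjusted p under 0.05, a share near the 11.8% of all genes. After IR, 6 of 78 were higher and 5 lower in libraries labelled Tet2-/-, where 3.51% of all genes were higher and 6.17% lower, so the share of lower genes was near that of all genes. Nes was 2.02 higher on the log2 scale (adjusted p = 0.0123), Srgap1 (a GTPase-activating protein at the slit diaphragm) 2.39, Efnb1 (ephrin-B1) 0.64 and Inf2 (a formin) 1.51, and the lower ones included Ptprd at -1.20, Dpp4 at -0.91, Vegfa at -0.73 and Col4a3, a collagen chain of the glomerular basement membrane, at -0.69. Without the third WT IR library 2 were higher, Nes among them (1.79, adjusted p = 0.0298), and 1 lower, Ptprd. Of the 16537 genes then tested, 92 were higher and 305 lower. The values of other named genes moved little, to 2.10 for Srgap1, 0.54 for Efnb1, 1.25 for Inf2, -0.74 for Vegfa, -0.72 for Col4a3 and -0.93 for Dpp4, with adjusted p from 0.0660 to 0.128.

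In the interaction, 11 of the 78 were positive and 2 negative, where 3.78% of all genes were positive and 5.38% negative. They included Nes at 2.41, Nrp1 (neuropilin-1, a VEGF co-receptor) at 1.11, Lamc1 (a laminin chain) at 1.18 and Itgb1 (the partner chain of Itga3) at 1.06, against Vegfa at -1.09 and Dpp4 at -1.07. Without the third WT IR library 4 were positive and 1 negative, where 235 of the 16994 genes tested were positive and 533 negative. Nes (adjusted p = 0.00825), Nrp1 (0.0427), Lamc1 (0.0468) and Vegfa (0.0237) then still passed.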

How the data were processed

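RNA-seq libraries of 12 mouse kidneys were analysed in 4 groups of 3, taken from the labels. The authors aligned with STAR to mm9 and used HOMER to count reads per RefSeq transcript, and deposited expected counts without normalization, and FPKM of the same transcripts. The deposited counts come in steps of 0.5, with 38.7% not whole, and were rounded before testing, where whole counts had been assumed. For each of 24421 symbols the transcript with the highest total was kept. Each comparison used its own 6 libraries, and the interaction all 12, in edgeR 4.0.16 (R 4.3.3) with TMM, its filter on low counts, the quasi-likelihood test and p-values adjusted by Benjamini-Hochberg over every gene tested. DESeq2 1.42.0, limma 3.58.1 on log2 FPKM, other scalings and filters, a replicate block and each library left out were alternatives. The tests were tried on simulated data. Correlations used log2 CPM after TMM, with a prior of 0.5 counts, scaled to library size, added before the log. Plots used matplotlib 3.10.9 (Python 3.11.15).

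The podocyte genes, the lists and the rules were chosen with earlier results of these data known. Besides the 8 genes, the text names Tet2, up to 4 genes a direction with the lowest adjusted p from the list of 78 in each comparison, and the 8 genes most like Nphs1. Some genes under these rules are not reported here. Same-numbered baseline and IR libraries of a genotype deviated together from their group means (r of 0.322 to 0.334 in WT and 0.122 to 0.337 in libraries labelled Tet2-/-), although they are different mice, so the pairing rests on these correlations only.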

Additional observations from a re-analysis of the deposited data

Results flagged for a closer look

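For 2 of the 8 podocyte genes, and for the 6 genes named from the list of 78, the IR effect differed between the genotypes by the interaction test (edgeR, adjusted p under 0.05, all 12 libraries). Of the 78, 11 were positive and 2 negative, and of all genes tested 3.78% were positive and 5.38% negative. In log2 units, labelled Tet2-/- minus WT, the difference was 1.28 for Cd2ap, 2.09 for Synpo, 2.41 for Nes, 1.11 for Nrp1, 1.18 for Lamc1, 1.06 for Itgb1, -1.09 for Vegfa and -1.07 for Dpp4. Without the third WT IR library, Cd2ap (1.26, adjusted p = 0.0651), Itgb1 (1.06, adjusted p = 0.0564) and Dpp4 (-1.08, adjusted p = 0.0810) did not pass, at values that hardly moved. With groups of 3, no test of single outlying libraries was run.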

How the results depend on the processing

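In libraries labelled Tet2-/-, 5 to 7 podocyte genes were higher after IR under every alternative, 5 with all 12 libraries in a fit, 6 with limma on log2(FPKM + 1), and 6 to 7 with a library left out. Cd2ap, Podxl, Synpo, Actn4 and Wt1 passed under each. In WT after IR, DESeq2 called 1. Magi2 turned to 0.004 and 0.024 with limma on log2(FPKM + 1) and log2(FPKM + 0.1), and Synpo to 0.133 without the third WT IR and second WT baseline libraries, a choice made after seeing the data. With a WT library left out, values ran from -0.593 to 0.251 for Nphs1, -0.258 to 0.143 for Magi2, -0.89 to 0.055 for Podxl, -0.934 to 0.121 for Ptpro, -0.404 to 0.307 for Synpo and -0.9 to 0.214 for Wt1. At baseline, the replicate block turned Nphs1 to 0.005, and leaving out a library gave -0.435 to 0.180 for Nphs1, -0.365 to 0.050 for Magi2 and -0.365 to 0.098 for Wt1. The block is not a pairing there, since same-numbered libraries of the 2 genotypes had r of -0.169 to 0.0152. Between genotypes after IR, DESeq2 called 4, all 12 libraries in a fit 3, the same without the third WT IR library (chosen after seeing the data) 3, limma 1 and 2 with the pseudocounts 1 and 0.1, and leaving out a library 0 to 1. In the interaction, DESeq2 called 4, limma 4 with either pseudocount, upper-quartile scaling 1, median-ratio scaling 1, the sum of all transcripts of a gene 1, and leaving out a library 0 to 3. The replicate block changed no other call count, with 7 and 0 in the IR comparisons and 2 in the interaction. The share of all genes called is given only for DESeq2, in IR in WT and between genotypes after IR, and for fits without the third WT IR library. The counts under the other alternatives thus cannot be set against all genes. Scaled by library size only, the median of all genes moved to 0.27 for IR in libraries labelled Tet2-/-. A filter at a mean of 1 FPKM removed Magi2, and Ptpro and Wt1 as well for IR in WT and for the baseline genotypes. The 21 counts of Ptpro in the third WT IR library limit its precision.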

Other observations

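The transcripts of Ptpro and Synpo can be read separately in part. The exons found only in the long Ptpro transcript and not in the short one that shares its end, 2443 bases or 37.1% of its length, held 1.07% to 24% of its counts in a library, from 1.5 of 140.5 counts in the first labelled Tet2-/- baseline library to 106 of 441.5 in the first labelled Tet2-/- IR library. In the third WT IR library it was 1 of 21. The counts of the shorter Synpo transcript were 14% to 30.8% of those of the longer one, with 14% to 17.4% in the baseline libraries labelled Tet2-/- and 21.1% to 30.8% in the IR libraries with the same label. In WT the groups overlapped, with 21.3%, 17.0% and 29.7% at baseline and 24.1%, 27.9% and 25.1% after IR. Transcripts of a gene can share reads, to an extent not tested here, so these are ratios of counts and not separate levels.

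Ren1, the renin gene of the juxtaglomerular cells at the glomerular pole, was looked at after its values were seen. It was at 2.31 FPKM in the third WT IR library and at 14.4 to 104.8 FPKM in the other 11, so that it had its lowest value in the same library as Nphs1, while its highest values, 104.8 and 78.4 FPKM, were in the first IR and the first baseline libraries labelled Tet2-/- and not in that with the most Nphs1.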
